A study of Mus musculus with 9 samples.

Results

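The regions described here are stretches of mouse liver RNA that Argonaute (AGO) bound and that carry a seed match to miR-191-5p. They were chosen by sequence alone, from the deposited list of matches: a region was taken if it had at least 1 miR-191-5p match and no match to miR-122-5p, the microRNA deleted in the study. Of 92645 unique AGO-bound regions, 1061 met this rule. A further 127 regions had matches to both microRNAs and were left aside, so that 1188 regions, 1.28% of all, held a miR-191 match. This placed miR-191 at rank 28 of the 31 microRNA families listed.

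The study used AGO CLIP-seq, in which ultraviolet light crosslinks AGO to its RNA in frozen, powdered liver, an antibody against all AGO proteins recovers the complexes, and the trimmed RNA is sequenced. The livers came from 9 mice aged 6 weeks. The control group was 5 floxed littermates with miR-122 intact, 3 females (replicates 1 to 3) and 2 males (replicates 4 and 5). The KO group was 4 mice without miR-122, 1 female (replicate 1) and 3 males (replicates 2 to 4). Each library came from a separate mouse. The labels used here name no Cre driver, so the cells in which miR-122 was lost cannot be stated. The labels give liver as a whole as the source, and all its cell types contribute.

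MicroRNAs are short RNAs that guide AGO to messenger RNAs, mostly by pairing of bases 2 to 8 of the microRNA, the seed, with the target. AGO recruits proteins of the TNRC6 family, which lead to shortening of the poly(A) tail and to repression of translation. Sites in 3′ untranslated regions (3′ UTRs) usually repress more than sites in coding sequence (CDS). miR-191 is made from an intron of Dalrd3 together with miR-425 and is found in many tissues, the liver included. miR-122 is the dominant microRNA of hepatocytes.

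The mature microRNA and its 4 classes of match are shown because they define the regions. The seed and the bases that match it are in capitals. The sequence of the microRNA is RefSeq's (GRCm38.p6, chr9:108568325-108568347, plus strand), written in RNA letters, and the matches are in DNA letters, all 5′ to 3′.

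miR-191-5p: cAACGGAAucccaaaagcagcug
8mer match: TTCCGTTA
7mer-m8 match: TTCCGTT
7mer-A1 match: TCCGTTA
6mer match: TCCGTT

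Each match holds a CG dinucleotide. Of 1738 mature mouse microRNAs in the RefSeq table, 1 had this seed, miR-191-5p itself. The reference given for this work holds promoters and first bases of genes but no whole genome, so the bases around a match could be read for 22 of the 1061 regions, all close to a transcription start. In all 22 the expected match stood at the deposited position, with the class the deposited list gives. An example of each class follows, with 8 bases on each side of the 6 that all classes share, from RefSeq GRCm38.p6. The first 3 are the ones among the 22 with enough reads to be tested, and the last 2 show the shorter classes.

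Cdc42bpa, 5′ UTR, 8mer, chr1:179960922-179960943, plus strand: gagacgcTTCCGTTAagtgagg
Eif1b, 5′ UTR, 7mer-m8, chr9:120492712-120492733, plus strand: cattgatTTCCGTTtctcgccg
Prkcsh, 5′ UTR, 7mer-m8, chr9:22002999-22003020, plus strand: cggagcgTTCCGTTctcttatt
Tmem98, CDS, 7mer-A1, chr11:80821223-80821244, plus strand: tgctgctgTCCGTTAgtcactt
Spcs1, 5′ UTR, 6mer, chr14:31001261-31001282, minus strand: cggctacgTCCGTTtcgttgtc

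The regions printed with their sequences behaved differently from one another. Levels are given as CPM, reads scaled to a common total over the tested regions (TMM scaling), and fold changes as log2 of KO over control from edgeR's quasi-likelihood model with sex as a term. Cdc42bpa, a kinase that acts on the cytoskeleton, had 7.44, 5.79, 11.6, 20.1 and 5.70 CPM in control replicates 1 to 5 and 49.7, 33.7, 23.7 and 21.6 CPM in KO replicates 1 to 4. Every KO library lay above every control library, and the region rose by a log2 fold of 1.59 (SE 0.43, edgeR adjusted p = 0.00561). Eif1b, a translation initiation factor, had 5.58, 5.79, 17.4, 10.1 and 7.60 CPM in controls and 32, 32.5, 23.7 and 45.8 CPM in KO. Its groups did not overlap either, with a log2 fold of 1.72 (SE 0.42, edgeR adjusted p = 0.00272). Both regions were low in controls and depended on their KO reads to enter the test. Prkcsh, a subunit of glucosidase II, had 11.2, 17.4, 31.3, 21.2 and 26.6 CPM in controls and 27.2, 12.0, 13.5 and 8.09 CPM in KO. Here the groups overlapped and the log2 fold of -0.40 did not pass (SE 0.41, edgeR adjusted p = 0.467). Tmem98 and Spcs1 held 38 and 70 reads in all 9 libraries together and did not pass the filter on low counts, which asks for reads in several libraries.

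The deposited data behind these values are whole-number read counts, 445912 to 1170130 per library over all regions. The region over Mir122 itself, the check of the genotype labels, held 270 to 447 reads in the controls and 3 to 52 in the KO libraries, with a log2 fold of -3.88 (SE 0.47, edgeR adjusted p = 4.2e-06). Hepatocyte marker genes were present in every library. The summed level of 15 such genes was 43174 to 55959 CPM in controls and 29087 to 32973 CPM in KO. All 20 genes of a neuron list had AGO-bound regions, and their sum was 60.8 to 76.2 CPM in controls, where 9 of the 20 had no read, against 2904, 3367, 3832 and 16854 CPM in KO replicates 1 to 4. Relative to the average of KO replicates 1 to 3, KO replicate 4 was at 5.00 for that list and at 0.952 for hepatocyte genes. A stellate and matrix list of 8 genes was at 715 to 927 CPM in controls and 1675 to 2272 CPM in KO. An erythroid list was at 6879 to 10725 against 8601 to 18264 CPM, a Kupffer and macrophage list at 261 to 303 against 321 to 520 CPM, with Cd14 without a read in controls, and an endothelial list at 843 to 958 against 612 to 905 CPM. For cholangiocytes 3 of 5 genes had a region (17.4 to 51.3 against 90.3 to 140.2 CPM) and for lymphocytes 1 of 5 (8.69 to 32.4 against 32.4 to 57.5 CPM). The part of these marker shifts in the results below was not tested. In whole liver, fewer cells of a type and less RNA per cell cannot be told apart, and CLIP reads alone do not tell apart the amount of an RNA from the share of it that AGO holds.

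By class, 105 of the 1061 regions had an 8mer, 393 a 7mer-m8, 111 a 7mer-A1 and 452 a 6mer as their longest miR-191 match. They held 10 to 12136 reads each, with a median of 32. A gene name was deposited for 975 of them, from 924 genes, and 44 genes had more than 1 such region. Most regions, 953, were 70 bases long.

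miR-191 regions lay in 3′ UTRs more often than AGO-bound regions in general. Of the 1061, 459 were in 3′ UTRs (43.3%), against 33.7% of the 82017 regions without a miR-122 match. CDS held 335 (31.6% against 37.2%), introns 59 (5.56% against 10.1%) and the 10 kb downstream of genes 51 (4.81% against 3.32%). The 5′ UTR share was 7.07%, against 4.28%, which was the 5th highest of 29 families. The 3′ UTR share ranked 10th. These shares are descriptions of the peak list, in which a region was called once for all libraries.

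The miR-191 matches were less conserved than those of other families. The deposited mean phyloP score of the 6 matching bases, positive where bases change more slowly than expected, had a median of 0.559 over 1051 miR-191 regions and 0.933 over matches of the other families. A score of at least 1 was reached by 35.2% and 48.2%. In 3′ UTRs the medians were 0.410 and 0.785, and in CDS the miR-191 median was 1.37. No test was made of these differences, since neighbouring regions share genes.

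The longer matches lay near the middle of their regions. Among regions of 70 bases, the match was within 10 bases of the centre in 70.3% of 8mers and 69.6% of 7mer-m8 matches, and in 60.0% of 7mer-A1 and 46.6% of 6mer matches. For all other families together the same shares were 71.6%, 61.5%, 52.1% and 45.7%. The plot of match positions shows the narrow peak of the 8mers and the flatter line of the 6mers.

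**Figure D1:**
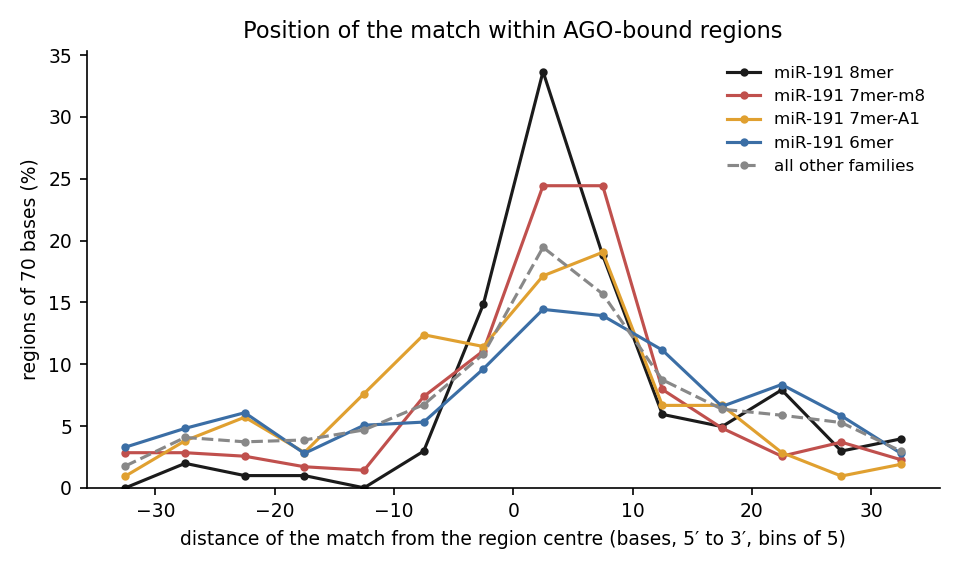
Percent of 70-base AGO-bound regions (y axis) by the distance of the miR-191 match from the region's centre in bases (x axis, bins of 5, 5′ to 3′), 1 line for each match class and a dashed line for the matches of all other families. The 8mer and 7mer-m8 lines peak just 3′ of the centre, and the 6mer line is the flattest, with 46.6% within 10 bases.

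About as many miR-191 regions stood alone as shared a region with another family. A match of no other listed family was present in 521 (49.1%). In the rest, miR-103/107 was the most frequent partner with 72 regions, followed by the miR-15/16 family with 69, miR-22 with 49, miR-27 with 47 and miR-30 with 45. Among the regions named below, those of Slc25a39, Ahsg, Cox7a2, Prdx6, Tbc1d9, Tjp1, Map1b, Glud1 and Ppp1r15b also hold a match of another family. So do those of Fbxo21, Galk2, Ptpn4, Fzd5, Ndst1, Sox4, Ldha and Slc25a51.

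The question of the study was which AGO-bound RNAs change when miR-122 is lost. None of these regions has a listed miR-122-5p match. Most of those tested had higher values in KO. Of the 1061 regions, 244 had enough reads for the test (57 to 12136 reads, median 146), and the other 817 (median 23) are not described by it. The test kept a region with enough reads in either group, so the 244 are not a sample of all 1061. At an adjusted p under 0.05 (edgeR, over all 17182 regions tested), 79 rose in KO (32.4%), 20 fell (8.20%) and 145 did not pass. In the background, 17.5% of all tested regions rose and 27.6% fell, and of the 13915 without a miR-122 match 21.3% rose and 13.2% fell. The median log2 fold change was 0.64 for the miR-191 regions, with 182 of 244 above 0, against 0.26 for tested regions without a miR-122 match and 0.03 for all.

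The CPM of the groups did not overlap, with KO above, in 63 of the 244 regions, against 15.2% of all tested regions and 18.4% of those without a miR-122 match. KO lay below without overlap in 17, against 24.7% and 10.9%. Between libraries the shift was uneven. The median log2 ratio of the 244 regions to the control mean was 0.85, 0.65, 0.49 and 0.37 in KO replicates 1 to 4, and -0.09 to 0.12 in the controls. KO replicate 1, the female, was the highest and KO replicate 4 the lowest.

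Regions with a 7mer or 8mer had higher medians than those with a 6mer. Among tested 8mers, 13 of 32 rose and 1 fell, with a median log2 fold of 0.84. Among 7mer-m8 regions 40 of 102 rose and 5 fell (median 0.85), and among 7mer-A1 regions 10 of 26 rose and 2 fell (median 0.64). Among 6mers 16 of 84 rose and 12 fell, with a median of 0.34, close to the 0.26 of all regions without a miR-122 match. The difference between classes was not tested. Control levels also differed. The median control level was 17.8 CPM for tested regions with a 7mer or 8mer and 23.6 CPM for those with a 6mer. For 7mer-A1 regions alone it was 22.2 CPM, near that of the 6mers. As regions low in controls could enter the test only through their KO reads, these differences cannot be told apart from the filter. The counts here and in the next paragraph include rising regions with at most 3 control reads, described further on, which support no count.

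The annotation classes differed as well, again without a test between them. In 3′ UTRs 57 of 124 regions rose and 8 fell (median 0.87), against 31.1% rising, 7.63% falling and a median of 0.54 among 5804 tested 3′ UTR regions without a miR-122 match. In CDS 11 of 80 rose and 8 fell (median 0.32), where 9.68% of 5215 such CDS regions rose and 20.1% fell, with a median of -0.04. In 5′ UTRs 5 of 17 rose and 2 fell (median 0.54), against 13.1% and 22.7% of 635 (median -0.05). The 84 tested 3′ UTR regions with a 7mer or 8mer had a median of 1.01, with 44 rising and 4 falling. The 27 CDS regions with a 6mer had a median of -0.03, with 1 rising and 6 falling. Other subsets lay between. In 3′ UTRs, the 40 tested regions with a 6mer had a median of 0.70 (13 rose, 4 fell). The 14 with a 7mer-A1 there were at 0.69 (6 rose, 1 fell). In CDS, the 53 with a 7mer or 8mer were at 0.46 (10 rose, 2 fell).

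**Figure D2:**
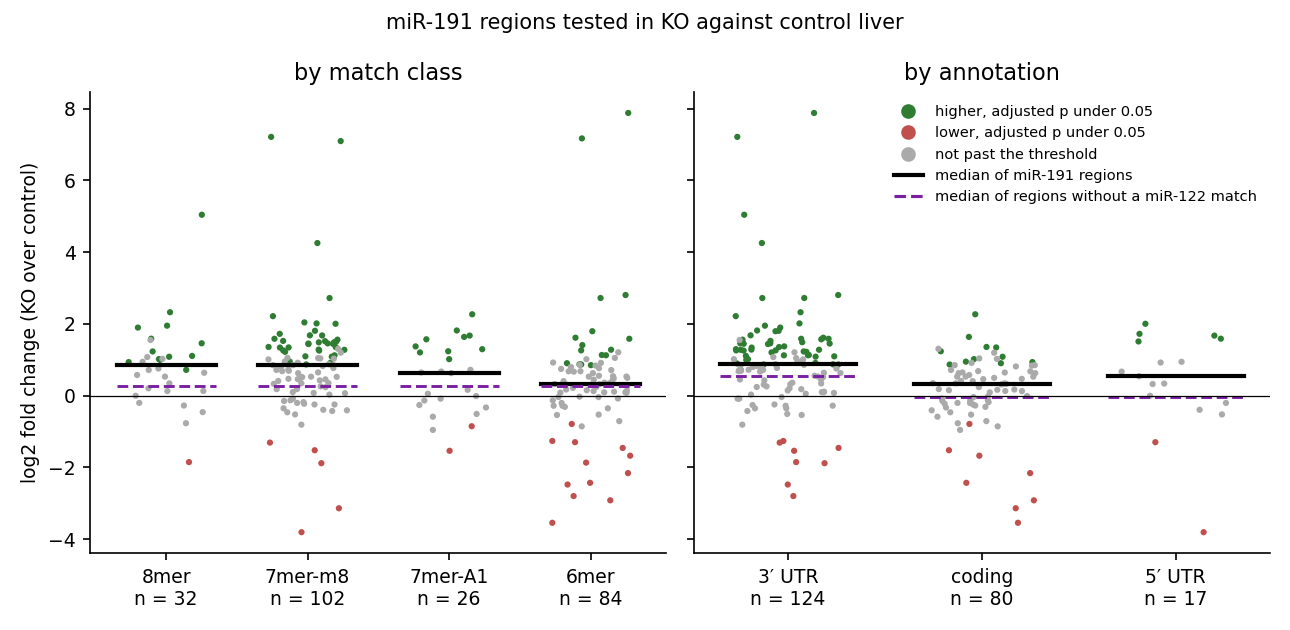
Each point is 1 of the tested miR-191 regions, placed by its log2 fold change of KO over control (y axis) and grouped by match class (left) or by annotation (right); green points rose and red points fell at an adjusted p under 0.05, and grey points did not pass. Black lines are the medians of the miR-191 regions, 0.84, 0.85, 0.64 and 0.34 by class, and purple dashed lines are the medians of tested regions without a miR-122 match, 0.26 on the left and 0.54, -0.04 and -0.05 on the right.

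The medians also differed by conservation and by the presence of other matches, with no test of the difference. Of the 84 tested 3′ UTR regions with a 7mer or 8mer, the 34 whose match scored 1 or more on phyloP had a median of 1.16 (20 rose, 2 fell) and the other 50 a median of 0.88 (24 rose, 2 fell). The 36 with a match of no other family had a median of 1.10 (21 rose, 0 fell), and the 48 with other families 0.89 (23 rose, 4 fell). Control levels differed between these subsets. The median control level was 14.4 CPM for the 34 and 19.8 CPM for the 50, and 11.0 CPM for the 36 and 21.2 CPM for the 48. Regions low in controls could enter the test only through their KO reads, so these counts cannot be told apart from the filter. Over all annotations, the 99 tested regions with a miR-191 match alone had a median of 0.80 (40 rose, 10 fell), and the 145 with other families 0.55 (39 rose, 10 fell).

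Regions of other families also had medians above 0. Median log2 folds of regions without a miR-122 match were 0.39 for the miR-25/32/92a family (119 of 450 rose, 37 fell), 0.63 for miR-143-3p (243 of 645 rose, 89 fell) and 0.25 for let-7 (292 of 1658 rose, 137 fell). In 3′ UTRs alone they were 0.68, 1.28 and 0.36, beside 0.87 for miR-191. These families share regions with miR-191 and with each other, and all of these values use the same control libraries. No test was made between families.

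As a share of each library's counts over all regions, the 1061 miR-191 regions took 1.09, 1.09, 1.12, 1.08 and 1.01% in controls and 1.71, 1.51, 1.45 and 1.35% in KO. The groups did not overlap: the mean was 1.08% ± 0.0391 (SD, n = 5) in controls and 1.50% ± 0.151 (SD, n = 4) in KO, a ratio of 1.39. For 7mer and 8mer regions the share went from 0.540% ± 0.0568 to 0.861% ± 0.155, a ratio of 1.60, and for 6mers from 0.538% ± 0.0275 to 0.641% ± 0.0403, a ratio of 1.19. For the 280 regions with a 7mer or 8mer in a 3′ UTR the ratio was 1.75 (0.308% ± 0.0403 against 0.538% ± 0.0891). Shares are parts of 1 total, in which the regions with a miR-122 match took less in KO: all 3′ UTR regions without a miR-122 match went from 21.8% to 33.5%, a ratio of 1.54. When counts in regions with a miR-122 match were left out of the denominator, the ratio for all miR-191 regions was 1.09. The ratios given for subsets, 6mers included, keep those counts in the denominator.

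**Figure D3:**
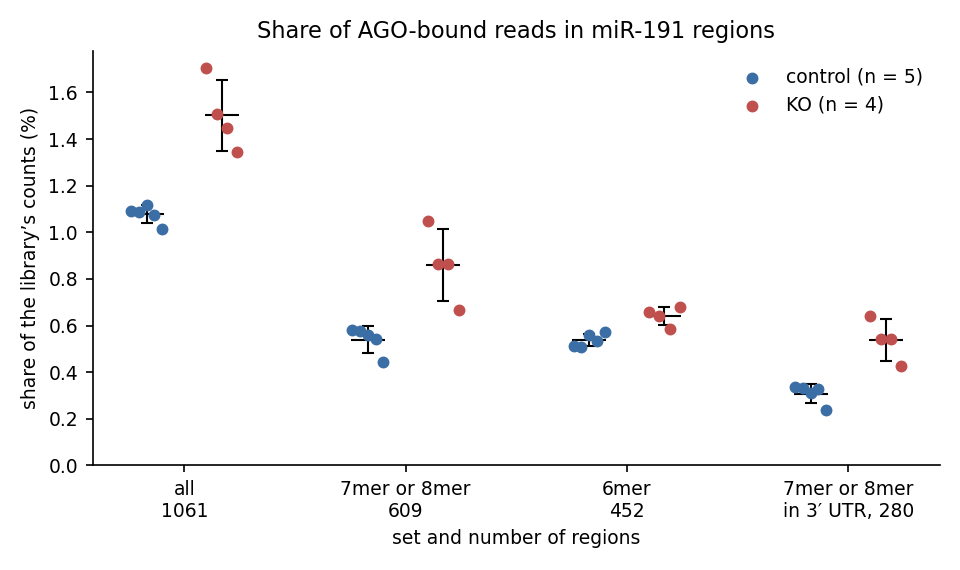
Percent of each library's AGO-bound reads (y axis) that lay in miR-191 regions, for all 1061 and for 3 subsets of them (x axis, with the number of regions), each point 1 library and the lines mean ± SD of 5 control and 4 KO libraries. KO libraries lie above all controls in each set, with means of 1.50% against 1.08% for all regions and 0.641% against 0.538% for 6mers. Reads in regions with a miR-122 match, whose share was lower in KO, are part of the total.

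The miR-191 hairpin itself was captured. A region at chr9:108568303-108568372 overlaps the RefSeq hairpin of Mir191 (108568319 to 108568392, plus strand) and covers the mature 5p arm. It had no gene name in the deposited list and was found by coordinates. Control replicates 1 to 5 had 1223, 701, 433, 543 and 902 CPM and KO replicates 336, 779, 1121 and 1974 CPM. The KO libraries held both the lowest and the highest value of the 9, and the log2 fold was 0.14 (SE 0.49, edgeR adjusted p = 0.837). The sign of this value turned without KO replicate 4 (-0.22) and without control replicate 4 (-0.41). The region over the neighbouring Mir425, which has a miR-122 match, averaged 356 CPM ± 129 in controls and 523 CPM ± 223 in KO (log2 fold 0.45, SE 0.38, edgeR adjusted p = 0.364). In both hairpin regions KO replicate 1 was the lowest and KO replicate 4 the highest of the KO libraries.

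Of the 79 regions that rose, 57 lay in 3′ UTRs and 16 were 6mers. The region in App, the amyloid precursor protein (chr16:84955175-84955311, 7mer-m8), had 9.29, 11.6, 11.6, 14.5 and 9.50 CPM in controls and 133, 135, 174 and 696 CPM in KO. The groups were far apart and KO replicate 4 was the highest, at 4.73 relative to the average of KO replicates 1 to 3. The log2 fold was 4.25 (SE 0.52, edgeR adjusted p = 5e-06), and 3.60 without KO replicate 4. The region depended on its KO reads to enter the test. The other 6 tested regions of App, with no miR-122 match among them, had a median log2 fold of 4.21, so the miR-191 region did not stand apart from its gene (relative log2 fold 0.37, edgeR adjusted p = 0.623).

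Tbc1d9, of the TBC family of Rab regulators (chr8:83272621-83272690, 7mer-m8), had 16.7, 5.79, 13.9, 6.70 and 26.6 CPM in controls and 102, 80.7, 90.2 and 97.1 CPM in KO. The 4 KO libraries lay close together and above all controls, and the log2 fold was 2.72 (SE 0.37, edgeR adjusted p = 1.27e-05). This region also holds matches of 4 other families, and it depended on its KO reads to enter the test. Tjp1, a scaffold of tight junctions, had an 8mer in its 3′ UTR at chr7:65297232-65297301, with 48.3, 34.8, 38.2, 38.0 and 19.0 CPM in controls and 162, 126, 119 and 86.3 CPM in KO. All KO libraries were above all controls (log2 fold 1.95, SE 0.28, edgeR adjusted p = 2.12e-05). Its match was among the most conserved of those named, with a phyloP of 2.48. Tjp1 also rose relative to its gene, which had 8 other tested regions, by a log2 fold of 1.14 (edgeR adjusted p = 1.56e-05). This fell to 0.64 (edgeR adjusted p = 0.0469) when regions with a miR-122 match were left out.

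Socs2, which dampens growth hormone signalling, had 2 tested miR-191 regions. The one in CDS (chr10:95412963-95413032, 7mer-A1, phyloP 2.48) had 14.9, 0, 10.4, 17.9 and 24.7 CPM in controls and 72.2, 62.6, 108 and 53.9 CPM in KO, with no overlap (log2 fold 2.27, SE 0.42, edgeR adjusted p = 0.000248). The one in the 3′ UTR, an 8mer, was at 4.70 CPM in controls and 24.5 CPM in KO with overlapping groups, and rose by a log2 fold of 2.32 (SE 0.73, edgeR adjusted p = 0.0153). Both regions thus moved by about the same amount, and both depended on their KO reads to enter the test. Fiz1 was the other gene with 2 tested regions, both in CDS: its 8mer rose (log2 fold 1.08, SE 0.40, edgeR adjusted p = 0.0341), and its 7mer-m8 had a log2 fold of 1.30 that did not pass (SE 0.52, edgeR adjusted p = 0.0524). The region in KCTD12, an auxiliary subunit of GABA-B receptors (3′ UTR, 6mer), had 3.72, 2.90, 2.32, 5.59 and 1.90 CPM in controls and 24.9, 16.9, 24.8 and 32.4 CPM in KO. The lowest KO value was above the highest control, with a log2 fold of 2.72 (SE 0.48, edgeR adjusted p = 0.000169).

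In 5 of the tested regions all controls together held at most 3 reads, and all 5 rose. Such a region could enter the test only through its KO reads, so its direction was fixed by the filter and it supports no count. Map1b, a microtubule protein of neurons, had no read in any control and 23.7, 34.9, 39.5 and 140.2 CPM in the KO libraries. Against the floor of 3 reads over the control group this is at least 62.9-fold higher. Cntn1, a neuronal adhesion protein, and an intron of Fbxl20 had no control read either and were at least 39.5-fold and 33.6-fold higher. Peg10, an imprinted gene of retrotransposon origin with an 8mer in its 3′ UTR, had 2 control reads and 81 KO reads, a ratio of 43.7 after scaling (95% exact interval 11.7 to 367, counting error only). An unnamed 6mer region at chr7:92447029-92447098, which overlaps Dlg2 in RefSeq, had 1 control read and 192 KO reads (ratio 207, interval 36.8 to 8234). In each of the 5, KO replicate 4 was the highest library. Its ratio to the average of KO replicates 1 to 3 ran from 2.91 to 5.54 (median 4.77), beside 5.00 for the neuron list. Over the other 74 rising regions that ratio ran from 0.256 to 4.73 with a median of 0.848. The part of neuron transcripts in these values was not tested. Without the 5 regions, 74 of 239 tested regions rose and 20 fell, with a median log2 fold of 0.63. Other rising regions with few control reads also depended on their KO reads to enter the test. Examples are Dcaf7, KCTD12 and Vezf1, with 29, 11 and 22 control reads. Others are App, Tbc1d9, Ptpn4 and the CDS region of Socs2, with 37, 43, 44 and 46 control reads. Cdc42bpa and Eif1b had 37 and 33. The remaining counts are therefore not free of the filter either.

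**Figure D4:**
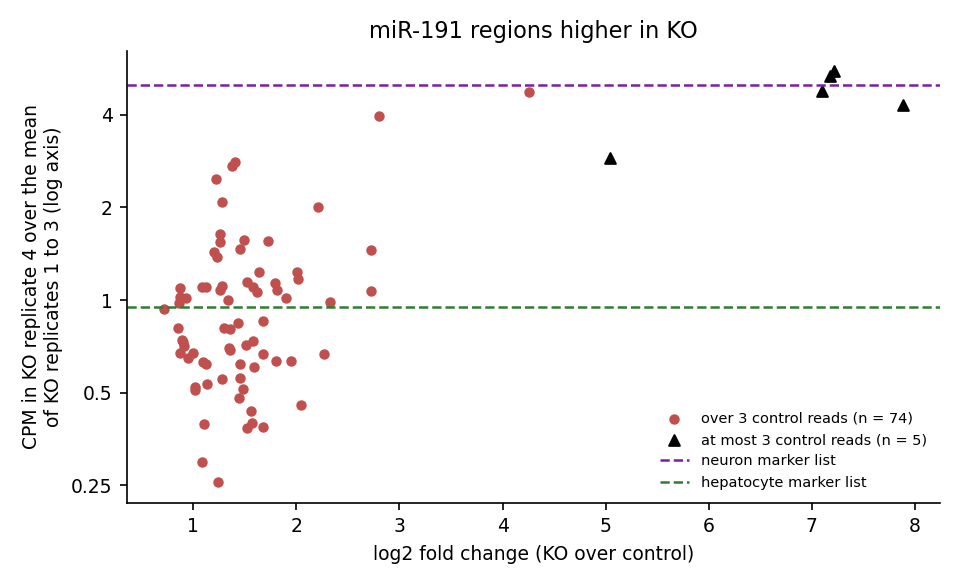
Each point is 1 of the 79 miR-191 regions that rose, by its log2 fold change of KO over control (x axis) and by the CPM of KO replicate 4 over the mean of KO replicates 1 to 3 (y axis, log scale); black triangles are the 5 regions with at most 3 control reads, and dashed lines mark the same ratio for the summed neuron list (5.00) and hepatocyte list (0.952). The triangles lie between 2.91 and 5.54, and most of the 74 red points lie around 1 or below, with a median of 0.848.

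Of the 20 falling regions, 12 were 6mers, 8 lay in CDS and 8 in 3′ UTRs. Slc25a39, a mitochondrial glutathione carrier (CDS, 6mer, chr11:102405778-102405847), had 68.8, 89.8, 99.6, 80.5 and 60.8 CPM in controls and 13.0, 2.41, 3.38 and 5.39 CPM in KO. Every KO library was far below every control, with a log2 fold of -3.55 (SE 0.39, edgeR adjusted p = 1.58e-06), and -4.29 without KO replicate 1. The other 2 tested regions of Slc25a39, without a miR-122 match, had a median log2 fold of -4.28, so the gene's regions fell together. The Slc25a39 match lay 28 bases 5′ of the region's centre and its phyloP was -0.10.

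Pzp, a protease inhibitor of the alpha-macroglobulin family (CDS, 6mer), had 214, 142, 184, 180 and 186 CPM in controls and 55.6, 21.7, 23.7 and 24.3 CPM in KO. KO replicate 1 was the highest KO library, still below all controls (log2 fold -2.43, SE 0.29, edgeR adjusted p = 4.19e-06). Ahsg, the secreted glycoprotein fetuin-A (CDS, 6mer, chr16:22895243-22895312), was the second most read of the miR-191 regions in controls, with 1119, 1161, 1239, 872 and 1544 CPM, and had 376, 192, 202 and 243 CPM in KO. It fell without overlap by a log2 fold of -2.16 (SE 0.27, edgeR adjusted p = 6.72e-06). Ahsg also fell relative to its gene by -1.43 (edgeR adjusted p = 4.68e-08). The gene's 7 other tested regions, which hold no miR-122 match, had a median log2 fold of -0.11.

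Inhbe, the activin E subunit secreted by liver (CDS, 7mer-m8), went from 31.2 CPM ± 9.96 to 4.30 CPM ± 2.60 (log2 fold -3.14, SE 0.45, edgeR adjusted p = 2.17e-05). Cox7a2, a subunit of cytochrome c oxidase (5′ UTR, 7mer-m8), went from 34.9 CPM ± 15.9 to 1.77 CPM ± 2.05, with 6 reads left in the KO group (log2 fold -3.81, SE 0.57, edgeR adjusted p = 3.66e-05, and -4.55 without KO replicate 1). That region also carries a match of miR-122-3p, the other arm of the deleted hairpin, which the choice of regions did not exclude; 6 of the 1061 regions have one. D230025D16Rik (3′ UTR, 6mer) went from 32.5 CPM ± 9.15 to 4.63 CPM ± 2.81 (log2 fold -2.80, SE 0.48, edgeR adjusted p = 0.000124). Prdx6, a peroxiredoxin (3′ UTR, 7mer-A1, phyloP 2.04), went from 159 CPM ± 16.3 to 54.6 CPM ± 14.1 (log2 fold -1.54, SE 0.26, edgeR adjusted p = 0.000134). Upp2, a uridine phosphorylase (CDS, 6mer), went from 35.7 CPM ± 9.22 to 3.88 CPM ± 4.52, with no read in KO replicates 3 and 4 (log2 fold -2.92, SE 0.59, edgeR adjusted p = 0.000566). In all 5 the KO libraries lay below all controls. The other 12 falling regions had log2 folds of -2.48 to -0.79, with no overlap in 8.

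**Figure D5:**
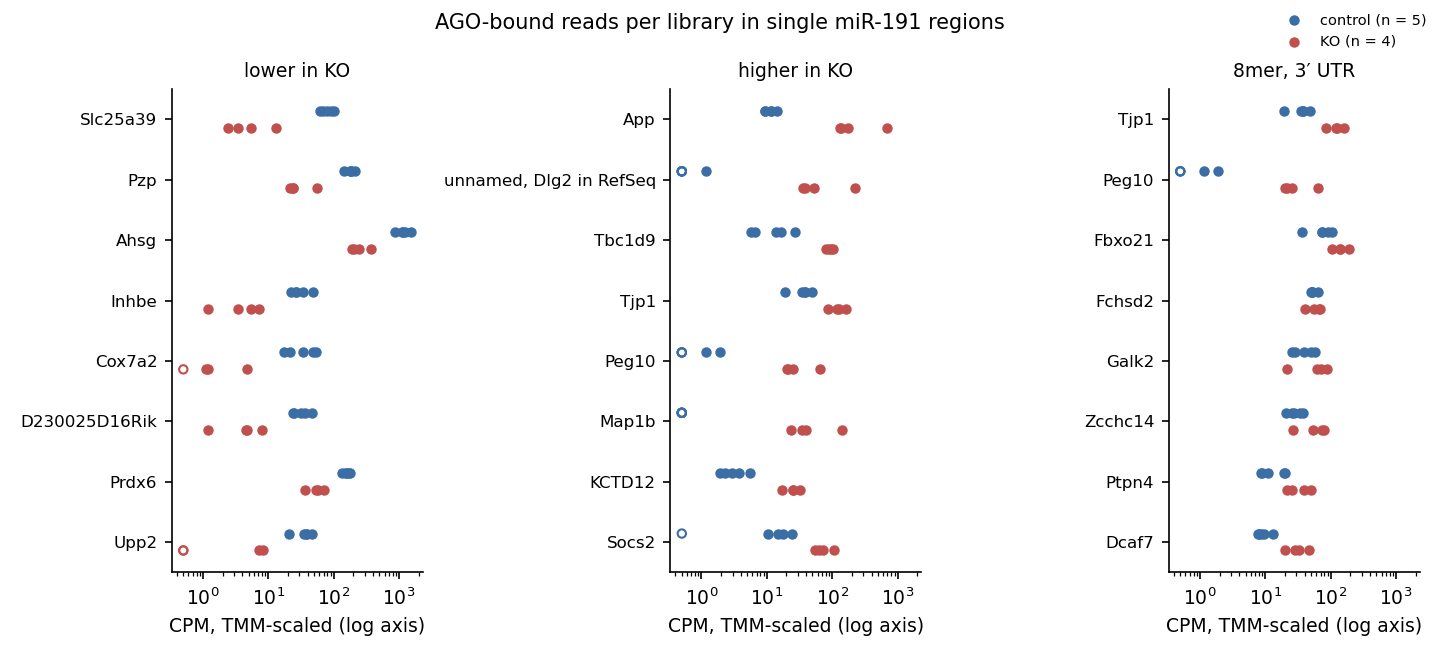
CPM after TMM scaling (x axis, log scale) of single miR-191 regions in each of 5 control (blue) and 4 KO (red) libraries: the 8 falling and the 8 rising regions with the smallest p, and 3′ UTR regions with an 8mer. Egr1, another 3′ UTR region with an 8mer, is not drawn, and its controls ran from 11.4 to 394 CPM. Open circles, drawn at the left end, are libraries without a read, as in all controls for Map1b, and KO replicate 4 is the rightmost red point for App at 696 CPM.

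The regions with most reads in controls included called and uncalled ones, Ahsg among those that fell. The most read, an unnamed 6mer region at chr11:109011949-109012018 annotated only as RNA, had 1584, 1486, 2058, 1980 and 2447 CPM in controls and 1959, 2226, 1527 and 2902 CPM in KO. The groups overlapped (log2 fold 0.08, SE 0.26, edgeR adjusted p = 0.835). The sign of this value turned under some other settings. Glud1, glutamate dehydrogenase (CDS, 7mer-A1), was at 380 CPM ± 111 and 282 CPM ± 58.0 with overlapping groups (log2 fold -0.33, SE 0.26, edgeR adjusted p = 0.319).

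The small ribosomal RNA of mitochondria, mt-Rnr1, had a 6mer region with 270 to 382 CPM in controls and 586, 655, 637 and 1764 CPM in KO, no overlap, and KO replicate 4 the highest (log2 fold 1.41, SE 0.34, edgeR adjusted p = 0.00238). Ppp1r15b, which directs dephosphorylation of a translation factor (3′ UTR, 7mer-m8), had 249, 284, 198, 246 and 169 CPM in controls and 531, 398, 358 and 305 CPM in KO. KO lay above without overlap (log2 fold 0.91, SE 0.24, edgeR adjusted p = 0.0044).

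8mers in 3′ UTRs are the matches that usually repress most. Of 42 such regions 15 were tested, 9 rose, 1 fell and the median log2 fold was 1.11, against 31.1% rising, 7.63% falling and a median of 0.54 among tested 3′ UTR regions without a miR-122 match. Peg10 is among the 9 and supports no count. Dcaf7, Ptpn4 and the 3′ UTR region of Socs2, also among them, depended on their KO reads to enter the test. The rising share of these 8mers is therefore not free of the filter. Fbxo21, an F-box protein, went from 76.1 CPM ± 26 to 143 CPM ± 34.1 (log2 fold 1.00, SE 0.29, edgeR adjusted p = 0.00987), with its lowest KO library, 105 CPM, just below its highest control, 106 CPM. Zcchc14, a zinc finger protein, went from 29.1 CPM ± 6.60 to 57.8 CPM ± 23.2 (log2 fold 1.11, SE 0.33, edgeR adjusted p = 0.0117), and KO replicate 4 at 27.0 CPM lay within the controls. Ptpn4, a tyrosine phosphatase (phyloP 2.19), went from 13.5 CPM ± 5.43 to 34.3 CPM ± 13.5 without overlap (log2 fold 1.46, SE 0.38, edgeR adjusted p = 0.00471). The calls of these 3 regions were lost without KO replicate 1, with adjusted p of 0.0932, 0.0935 and 0.0958.

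Dcaf7, a WD-repeat adaptor protein, had 13.0, 8.69, 8.11, 7.82 and 9.50 CPM in controls and 46.2, 28.9, 20.3 and 32.4 CPM in KO, again without overlap (log2 fold 1.90, SE 0.37, edgeR adjusted p = 0.000421). Fchsd2, a membrane-bending protein of endocytosis, did not pass the test: 53.7 CPM ± 6.43 in controls and 57.8 CPM ± 13.0 in KO (log2 fold 0.20, SE 0.26, edgeR adjusted p = 0.56). Galk2, a sugar kinase, had a log2 fold of 0.75 that did not pass (40.2 CPM ± 13.6 and 60.7 CPM ± 28.3, SE 0.35, edgeR adjusted p = 0.0948). KO replicate 4 was its lowest library at 21.6 CPM, and without it the adjusted p was 0.013.

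Reported miR-191 targets from other systems were looked up as a list of 14 genes. All 14 had AGO-bound regions, and 5 had a miR-191 region: Cebpb, Egr1, Fzd5, Ndst1 and Sox4. Cebpb, a transcription factor of liver (3′ UTR, 7mer-m8, chr2:167690322-167690391), had 87.4, 127, 69.5, 62.6 and 45.6 CPM in controls and 149, 261, 246 and 105 CPM in KO. KO replicate 4 fell within the range of the controls, and the region rose (log2 fold 1.45, SE 0.36, edgeR adjusted p = 0.00339). Ndst1, an enzyme of heparan sulfate synthesis (3′ UTR, 7mer-m8), had 14.9, 8.69, 31.3, 30.2 and 19.0 CPM in controls and 52.1, 65.1, 48.5 and 59.3 CPM in KO. It rose without overlap (log2 fold 1.26, SE 0.34, edgeR adjusted p = 0.00608).

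Egr1, an immediate early transcription factor with an 8mer in its 3′ UTR, varied widely among controls, at 143, 394, 49.8, 113 and 11.4 CPM, and had 245, 178, 232 and 146 CPM in KO. The groups overlapped (log2 fold 1.07, SE 0.59, edgeR adjusted p = 0.152), and without control replicate 2 the adjusted p was 0.0213. Fzd5, a Wnt receptor (3′ UTR, 7mer-m8), had 39.0, 26.1, 53.3, 44.7 and 39.9 CPM in controls and 78.1, 25.3, 27.1 and 32.4 CPM in KO. Its log2 fold was 0.07 (SE 0.34, edgeR adjusted p = 0.877), and -0.58 without the female KO library. Sox4, a transcription factor (CDS, 7mer-m8), had 5 reads in controls and 52 in KO (1.43 CPM ± 0.89 and 15.5 CPM ± 9.39) and did not pass the filter on low counts. Among all tested regions of the 14 genes without a miR-122 match, 10 of 19 rose and 0 fell. The shares over all tested regions without such a match were 21.3% and 13.2%. Of the 10, 5 lie in Tmod2, a tropomodulin of neurons, and none of these holds a miR-191 match. Their control means were 0 to 0.232 CPM and their KO means 29.6 to 111 CPM, so they could enter the test only through their KO reads and support no count. The other 5 lie in Ccnd2, Cebpb, Egr1, Ndst1 and Sox4, and those of Cebpb and Ndst1 are the miR-191 regions described above. The rising regions of Ccnd2, Sox4 and Egr1, at 9.96, 2.84 and 4.71 CPM in controls, also depended on their KO reads to enter the test.

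The silencing machinery was the second list, with 12 genes. Ago3, Dicer1, Tnrc6a and Tnrc6b each had a miR-191 region, and 1 of them was tested: Tnrc6a, which AGO recruits to repress its targets (CDS, 7mer-A1), at 37.4 CPM ± 15.9 in controls and 52.3 CPM ± 23.2 in KO (log2 fold 0.16, SE 0.35, edgeR adjusted p = 0.738). Over all regions of these 12 genes without a miR-122 match, 13 of 63 tested rose and 5 fell, with a median of 0.44. Among all tested regions without a miR-122 match 21.3% rose and 13.2% fell, with a median of 0.26, so the rising share was near that of the background.

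Whether a miR-191 region moved apart from its gene was tested for 187 of them with edgeR's diffSpliceDGE. That test sets a region against its whole gene, the region itself included. Of these, 50 rose relative to the gene and 4 fell, with a median of 0.35. In the background, 15.9% of 12830 regions rose and 15.9% fell, and of the 10625 without a miR-122 match 18.8% rose and 5.5% fell. These genes can also hold regions with a miR-122 match. With regions carrying a miR-122 match left out of each gene, 177 miR-191 regions could be tested, 16 rose and 5 fell, with a median of 0.15, against 5.21% and 5.95% of 10109 regions. All 4 regions that fell relative to their gene with miR-122 regions kept in were among the 20 that fell in KO: Ahsg, Pzp, Inhbe and D230025D16Rik. Of the 79 rising regions, 59 had a gene test and 25 of them rose relative to the gene.

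Named by p, the regions that moved most against their gene were these. Vezf1, a zinc finger transcription factor (3′ UTR, 7mer-m8), had 7.44, 17.4, 5.79, 4.47 and 5.70 CPM in controls and 29.6, 20.5, 30.4 and 53.9 CPM in KO (log2 fold 2.21, SE 0.48, edgeR adjusted p = 0.00101). It rose by 2.33 relative to its gene, which had 3 other tested regions (edgeR adjusted p = 3.86e-08). With the miR-122 region left out it rose by 1.32 (edgeR adjusted p = 0.00197). Ldha, lactate dehydrogenase (CDS, 8mer, chr7:46850940-46851009, phyloP 1.92), had 44.6, 69.5, 52.1, 53.6 and 49.4 CPM in controls and 63.9, 27.7, 32.7 and 40.5 CPM in KO. By itself it did not pass (log2 fold -0.28, SE 0.29, edgeR adjusted p = 0.464), but the gene's 6 other regions had a median of -2.01. Relative to its gene it rose by 1.53 (edgeR adjusted p = 9.41e-08), or 1.58 without the miR-122 region.

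Hadh, of fatty acid oxidation (CDS, 6mer), was at 62.2 CPM ± 19.0 and 46.2 CPM ± 17.1 and likewise did not pass by itself (log2 fold -0.21, SE 0.30, edgeR adjusted p = 0.608). It rose by 1.30 relative to its gene (edgeR adjusted p = 1.3e-06), and by 1.19 without the miR-122 region. The gene's 3 other tested regions had a median of -2.61. Slc25a51, a mitochondrial NAD carrier (3′ UTR, 7mer-m8), was at 79.0 CPM ± 11.5 and 65.2 CPM ± 19.2 (log2 fold -0.35, SE 0.28, edgeR adjusted p = 0.326). Its relative rise of 1.55 (edgeR adjusted p = 3.08e-07) fell to 0.35 without the gene's miR-122 regions and no longer passed (edgeR adjusted p = 0.424). Ttc36, a repeat protein abundant in liver (5′ UTR, 6mer), had 29.7, 92.7, 60.2, 41.3 and 15.2 CPM in controls and 18.9, 10.8, 15.8 and 16.2 CPM in KO. The lowest control lay within the KO values, and the region fell (log2 fold -1.30, SE 0.43, edgeR adjusted p = 0.0206). The 2 other regions of Ttc36 fell further, with a median of -4.31, so that relative to the gene it rose by 1.68 (edgeR adjusted p = 5.72e-06), or by 1.01 without the miR-122 region. The fall of the Ttc36 region itself was lost without KO replicate 1, KO replicate 2 or control replicate 4, with adjusted p of 0.15, 0.0729 and 0.148.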

How the data were processed

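AGO CLIP-seq libraries of 9 livers were analysed. The authors used Bowtie2 and mm10, per the submitters' processing notes (neither labels nor headers give versions, the peak caller, duplicate handling or the counting rule). The matrix holds 143524 rows, 1 per region and seed match, with whole-number read counts per library, not normalized, and a phyloP score per match, per the file headers. The deposited log2 fold change is the authors' own control over KO value and was not used. Annotation, gene names and matches were used as deposited; 31 names of month form were not used. Rows were reduced to unique regions.

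The test of regions was edgeR's, version 4.0.16, in R 4.3.3: filterByExpr, TMM, glmQLFit and glmQLFTest with sex and genotype as terms, Benjamini-Hochberg over all 17182 regions, threshold 0.05. SEs come from the test statistic. Regions within genes were tested with diffSpliceDGE. DESeq2 1.42.0 was an alternative. Python 3.11.15, pandas 2.3.3, numpy 2.4.6 and matplotlib 3.10.9 made tables and plots. The region test was checked on simulated counts. A floor of 3 reads equals 3.35 to 8.69 CPM in 1 library and 0.947 CPM over the controls; intervals and floors cover counting error only. Replicates differed by more than sampling noise in every pair (chi-square over its degrees of freedom, 2.62 to 7.70).

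Some named regions are not reported here. Named regions were the 8 rising and 8 falling with the smallest p, the 8 most read in controls, up to 10 tested 3′ UTR 8mers by level, those in reported target genes, and the 6 with the smallest p relative to their gene. Regions shown with sequence, of low control reads or with 2 per gene were singled out after their values were seen. The members and lists were chosen with earlier results of these data known.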

Additional observations from a re-analysis of the deposited data

Results flagged for a closer look

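Among the named miR-191 regions and the Mir191 hairpin, 74 groups of 4 or 5 libraries were looked at for a single library far from the rest; chance marks about 1 in 20 such groups. In KO, replicate 4 stood apart for App (696 CPM, the other KO libraries 133 to 174), the unnamed region over Dlg2, chr7_f_c2615 (227 CPM, others 36.1 to 52.1), Peg10 (64.7 CPM, others 20.1 to 25.3), Map1b (140.2 CPM, others 23.7 to 39.5) and mt-Rnr1 (1764 CPM, others 586 to 655). The same library had the highest neuron marker level, and the part of that in these values was not tested. KO replicate 1, the female, stood apart for Pzp (55.6 CPM, others 21.7 to 24.3) and Fzd5 (78.1 CPM, others 25.3 to 32.4). Among controls, replicate 3 was the single library with a read in chr7_f_c2615 (1.16 CPM, 1 read), replicate 1 was high for Fchsd2 (65.1 CPM, others 49.2 to 52.1) and replicate 2 for Vezf1 (17.4 CPM, others 4.47 to 7.44).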

How the results depend on the processing

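Among the values of named regions under other settings, 501 kept their direction and their side of the threshold, 9 lost it, 4 gained it and 11 turned in sign. With all 1061 regions tested and no filter on low counts, 183 rose and 35 fell, beside 12.2% and 11.3% of all regions. Of the 79 rising and 20 falling regions of the main test, 60 and 20 were called in this setting. Upper-quartile scaling moved the median of all regions from 0.03 to 0.26 and that of the miR-191 regions from 0.64 to 0.88, with 109 rising and 18 falling; the rising share of all called regions went from 38.8% to 49.3%, and that of miR-191 regions from 79.8% to 85.8%. TMM on regions without a miR-122 match gave 62 rising, 21 falling and a median of 0.45, with 13.3% and 30.3% of all. DESeq2 gave 76 and 20, with 16.6% and 27.1% of all. Restricting to 7mers and 8mers left 8 falling and a share ratio of 1.60, and restricting to regions with no other family left 40 rising and 10 falling; both restrictions test fewer regions. Within regions without a miR-122 match the share ratio was 1.09, and 21 regions, not 54, changed relative to their gene. Without single libraries, rising regions ran from 54 to 103, falling from 15 to 21, the median from 0.56 to 0.74, the share ratio from 1.33 to 1.44, regions changed relative to the gene from 37 to 77 and the hairpin's log2 fold from -0.41 to 0.86. The rising count was lowest without KO replicate 1 and highest without KO replicate 4. The test without 5 regions of at most 3 control reads and the hairpin's alternatives were chosen after seeing the data.

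Values that turned in sign did not pass in either form; the cause was not tested. With TMM on regions without a miR-122 match they were the hairpin (-0.047), chr11_r_c5061 (-0.11) and Fzd5 (-0.12); without the sex term Fzd5 (-0.0091); with upper-quartile scaling Hadh (0.030). Without single libraries chr11_r_c5061 ran from -0.048 (without KO replicate 4) to 0.26, Fzd5 from -0.58 (without KO replicate 1) to 0.33, and the hairpin was -0.22 without KO replicate 4 and -0.41 without control replicate 4.

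The replicate numbers were not treated as pairs of mice: deviations of same-numbered libraries correlated at -0.0358, -0.00796, -0.0889 and 0.00109. Such low correlations show no sign of pairing but cannot exclude it. A fit with a replicate block gave 71 rising and 22 falling regions, a median of 0.49 and 53 changed relative to the gene. Under the replicate block Fzd5 (-0.11) turned in sign and the calls of Ppp1r15b, Fbxo21 and Zcchc14 were lost (adjusted p 0.0611, 0.0643 and 0.0684). The 817 of 1061 regions that did not pass the filter on low counts, with 10 to 101 reads each, were not tested at this depth.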
